A study of Mus musculus with 4 samples.

Results

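The 9 genes described here act in order through the cell cycle, from entry into DNA replication to the end of mitosis, and were followed in RNA-seq counts of mouse embryonic stem cells. They were chosen by symbol: Ccne2, Mcm6 and Mcm10 for the start of S phase, Ccna2, Cdk1 and Gtse1 for S to G2, and Kif20a, Incenp and Bub1b for mitosis. Each of the 9 was found once among the 1517 named features of the deposited tables. The cells were of V6.5, a mouse embryonic stem cell line, at passage 3. A short hairpin against GFP (shGFP, the control, 2 libraries) or one against NCAPH2, a subunit of the chromosome-organising complex condensin II (shNCAPH2, 2 libraries), had been put into the cells. All 4 libraries came from cells grown first on irradiated feeder fibroblasts, kept for 5 days in puromycin at 2 µg/mL, and grown without feeders before harvest. The labels do not say whether each group was a pool or a clone, how many hairpins were used, or whether a group's libraries were grown apart. A p-value therefore sets a difference only against the variation among these 4 libraries, and that variation may be technical.

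A dividing cell passes through its cycle under cyclins, which switch on cyclin-dependent kinases, and many of the genes involved are transcribed in waves by E2F factors around S phase and by the MuvB, B-Myb and FoxM1 group towards mitosis. Embryonic stem cells divide fast, have a short first gap phase and spend much of their time in S phase. Condensin II binds chromosomes in the nucleus and compacts them as the cell enters mitosis.

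Promoter sequences were available from RefSeq (GRCm38.p6) for 5 of the 9 genes: Mcm6, Mcm10, Cdk1, Gtse1 and Bub1b. Each was searched on both strands, over the 250 bases before the start site, for the E2F motif (TTTCGCGC, TTTGGCGC, TTTCCCGC or TTTGCCGC), for the core of the cell cycle homology region CHR (TTTGAA), and for the CCAAT box that NF-Y binds. The E2F motif was found in Mcm6 and Cdk1, against 1.86% of 32851 promoter windows of the same length. The CHR core was found in Cdk1 alone of the 5, against 15.99% of windows, and CCAAT in all 5, against 33.85%. A match is a match of letters and does not show that a factor was bound. Shown here are the 150 bases that end just before the start site (the more upstream of RefSeq's and the tables'), 5′ to 3′, for the 2 genes with an E2F motif and for Mcm10, a replication gene without one, with the motifs in capitals.
Mcm6, chr1:128359706-128359855, minus strand: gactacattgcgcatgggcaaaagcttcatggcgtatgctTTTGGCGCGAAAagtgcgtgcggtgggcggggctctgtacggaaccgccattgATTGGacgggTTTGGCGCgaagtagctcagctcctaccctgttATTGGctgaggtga
Cdk1, chr10:69352939-69353088, minus strand: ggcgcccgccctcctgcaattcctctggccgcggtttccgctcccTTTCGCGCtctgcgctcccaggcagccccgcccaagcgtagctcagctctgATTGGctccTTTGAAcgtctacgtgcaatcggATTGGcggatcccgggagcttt
Mcm10, chr2:5012792-5012941, minus strand: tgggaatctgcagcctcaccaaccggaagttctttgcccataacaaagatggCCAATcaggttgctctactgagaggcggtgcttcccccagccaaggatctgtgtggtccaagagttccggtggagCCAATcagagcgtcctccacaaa

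In Mcm6 the capitals hold 3 E2F motifs, of which 2 on opposite strands overlap in 1 run, and 2 CCAAT boxes on the reverse strand (ATTGG). In Cdk1 they hold 1 E2F motif, 1 CHR core and 2 reverse CCAAT boxes, with the CHR core between the CCAAT boxes. In Mcm10 they hold 2 CCAAT boxes.

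The tables hold a part of each library in which every named feature had fewer counts in shNCAPH2, so a lower raw count is shared by the whole list and marks out no single gene. Over the named features the shGFP libraries held 507891 and 429907 counts, the shNCAPH2 ones 243628 and 272426. Relative to shGFP the median share of counts kept by a named feature was 46.7%, with a highest share of 67.8%. Ncaph2 was not analysed here, so its knockdown could not be checked. Of 20 embryonic stem cell markers 5 were in the tables, Nanog, Pou5f1, Sox2, Zfp42 and Esrrb. Together they had 2259 and 2432 counts for shGFP and 1577 and 1289 for shNCAPH2, most of them from Nanog. The median share kept by the 5 was 40.4%, with a range of 4.17% to 62.2%. Of 30 feeder fibroblast markers 3 were in the tables, Igfbp7, Tpm2 and Pdgfrb, with 71 and 70 counts together for shGFP and 34 and 31 for shNCAPH2. Their part in the results was not tested. In bulk RNA, fewer cells in a phase and less RNA per cell cannot be told apart.

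The 9 genes fell into 2 ranges of count. Ccna2, Kif20a and Ccne2 had over 100 counts in every library and together made up 93.7% and 94.1% of the counts of the 9 genes in shGFP and 94.3% and 95.6% in shNCAPH2. The other 6 genes had at most 31 counts in any library. Together they had 93 and 76 counts under shGFP, and 46 and 39 under shNCAPH2.

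**Figure D1:**
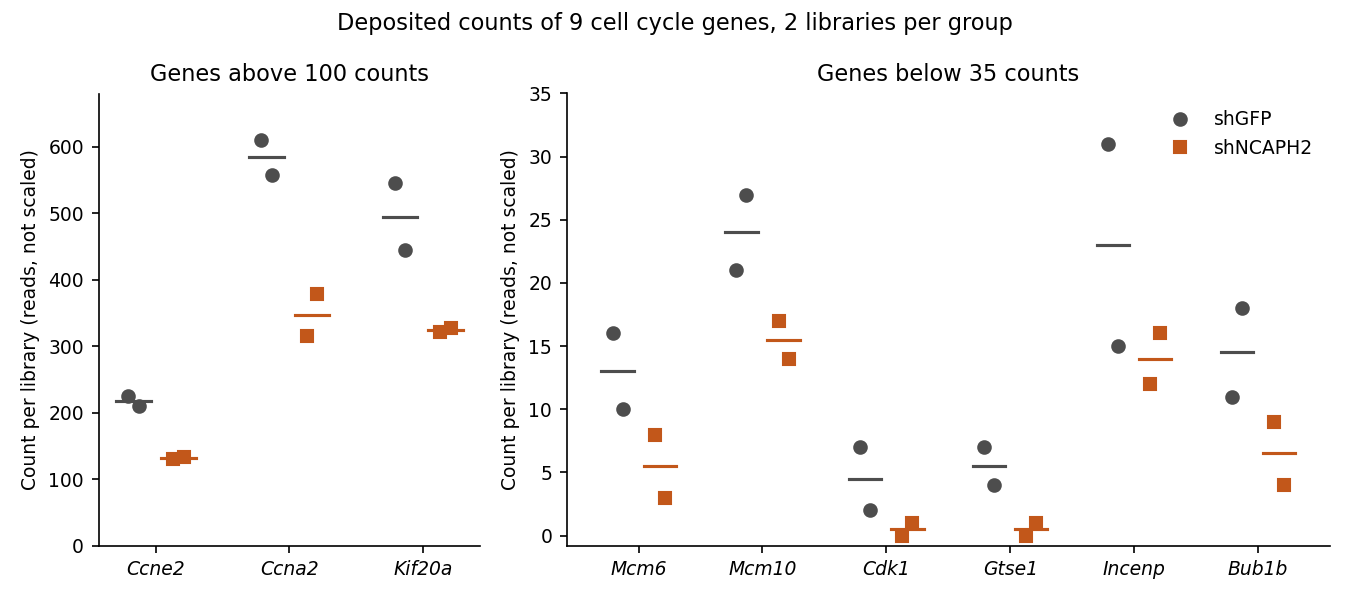
Raw count per library of the 3 genes above 100 counts (left) and the 6 genes below 35 counts (right), with shGFP libraries as grey circles, shNCAPH2 libraries as orange squares and the mean of 2 libraries as a line. Both shNCAPH2 points lie below both shGFP points for every gene but Incenp.

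At entry into S phase, cyclin E2 activates the kinase Cdk2. Its gene Ccne2 (chromosome 4, 11191351 to 11204779, plus strand, GRCm38) had 225 and 210 counts with shGFP and 131 and 134 with shNCAPH2. The groups did not overlap, and the libraries within each group lay close together (217.5 ± 10.6 and 132.5 ± 2.12 counts, SD, n = 2 each). Ccne2 kept 60.9% of its shGFP count, with an exact 95% interval of 52.1% to 71.1% that covers counting error only, as do all such intervals here.

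Mcm6 and Mcm10 take part in building the replication machinery. Mcm6 is a subunit of the ring-shaped MCM2-7 helicase, which is loaded at origins before S phase, and Mcm10 helps that helicase start to unwind DNA. Mcm6 (chromosome 1, 128331590 to 128359664, minus strand) had 16 and 10 counts with shGFP and 8 and 3 with shNCAPH2. Mcm10 (chromosome 2, 4989714 to 5012791, minus strand) had 21 and 27 counts with shGFP and 17 and 14 with shNCAPH2. In both genes the groups were apart, by as little as 2 counts in Mcm6 and 4 in Mcm10. Mcm6 kept 42.3% of its shGFP count (interval 18.9% to 88.6%) and Mcm10 64.6% (39.7% to 104%). Without shNCAPH2 replicate 1 the share of Mcm6 was 23.1%. The intervals overlap widely, though they leave out variation between libraries, and a difference between the 2 genes was not tested.

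Moving on to S phase and G2, cyclin A2, encoded by Ccna2, partners Cdk2 during replication and Cdk1 afterwards. Ccna2 (chromosome 3, 36564866 to 36572150, minus strand) had the highest counts of the 9 genes, 610 and 558 in shGFP and 315 and 379 in shNCAPH2. It kept 59.4% of its shGFP count (interval 54.0% to 65.3%), and the lowest shGFP library stood well above the highest shNCAPH2 library.

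Cdk1, the kinase that drives entry into mitosis and the partner of cyclins A2 and B1, stood at the other end of the range. Its feature (chromosome 10, 69336635 to 69352938, minus strand) held 7 and 2 counts with shGFP and 0 and 1 with shNCAPH2. Gtse1, a microtubule-associated protein that is made in G2 and acts on p53, had 7 and 4 counts with shGFP and 0 and 1 with shNCAPH2 (chromosome 15, 85859707 to 85876572, plus strand). The groups did not overlap, by a margin of 1 count for Cdk1 and of 3 counts for Gtse1. The summed shGFP count was 9.0 times the shNCAPH2 count for Cdk1 (exact interval 1.25 to 394) and 11.0 times for Gtse1 (1.60 to 473), ratios that rest on 1 count in shNCAPH2 for each gene. The share kept, 11.1% for Cdk1 and 9.09% for Gtse1, was 0% for both without shNCAPH2 replicate 2, and 22.2% and 18.2% without shNCAPH2 replicate 1. For Cdk1 it was 25.0% without shGFP replicate 1 and 7.14% without shGFP replicate 2.

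In mitosis, Kif20a is a kinesin of the central spindle that is needed for cytokinesis. Kif20a (chromosome 18, 34624624 to 34633265, plus strand) had 545 and 444 counts with shGFP and 322 and 327 with shNCAPH2. It kept 65.6% of its shGFP count (interval 59.3% to 72.5%). Mcm10 kept nearly as much with all libraries, and each time 1 library was left out either Mcm10 or Incenp kept more than Kif20a. Without shGFP replicate 1 the share of Kif20a was 73.1%.

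Incenp holds together the chromosomal passenger complex, which brings the kinase Aurora B to centromeres and the midzone. It had 31 and 15 counts with shGFP and 12 and 16 with shNCAPH2 (chromosome 19, 9872297 to 9899533, minus strand). This was the 1 gene whose groups overlapped, and its shGFP libraries differed more from each other than its group means did. Bub1b encodes BubR1, a part of the spindle assembly checkpoint that holds back anaphase. It had 11 and 18 counts with shGFP and 9 and 4 with shNCAPH2 (chromosome 2, 118598211 to 118641591, plus strand), with the groups 2 counts apart. Incenp kept 60.9% of its shGFP count (interval 36.6% to 99.5%) and Bub1b 44.8% (21.4% to 89.0%). Without shGFP replicate 1 the share of Incenp was 93.3%, and without shNCAPH2 replicate 1 that of Bub1b was 27.6%.

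In 8 of the 9 genes both shNCAPH2 counts were below both shGFP counts, against 88.4% of all named features. The share of genes with separate groups is thus near that of the list as a whole.

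**Figure D2:**
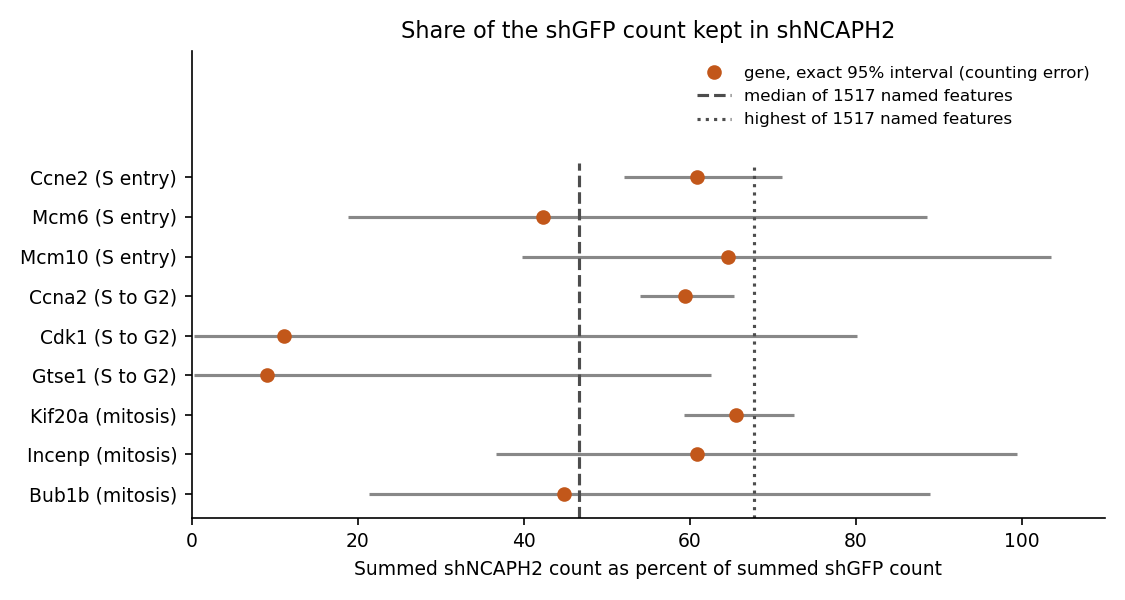
Summed shNCAPH2 count as a percent of the summed shGFP count for each of the 9 genes in order of phase, with exact 95% intervals for counting error, the median of all named features (dashed, 46.7%) and their highest value (dotted, 67.8%). Cdk1 and Gtse1 lie at 11.1% and 9.09% with the widest intervals relative to their value, and Kif20a at 65.6%.

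Within the list, the share kept went with the count. As only features with fewer counts in shNCAPH2 are listed, none keeping more than 67.8%, the medians below are of a selected set. How far that selection shapes them was not tested. Over all named features with a mean shGFP count under 10 (483 features, Cdk1 and Gtse1 among them), the median share kept was 23.1% and the highest 57.9%. With a mean of 10 to 35 (550 features, with Mcm6, Mcm10, Incenp and Bub1b) the median was 51.2%, with 35 to 100 (180 features, none of the 9) 56.1%, and with 100 or more (304 features, with Ccne2, Ccna2 and Kif20a) 58.9%. The low shares of Cdk1 and Gtse1 therefore stand beside a low median of all features with as few counts, and the shares of Ccna2 and Ccne2 lie within 3 percentage points of the median of theirs. Kif20a kept 65.6%, beside a median of 58.9% and a highest share of 67.8% among features with 100 or more counts. Over all named features, of any count, 4.48% kept more than Kif20a, and its rank among those with 100 or more was not computed.

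Counts were compared between genes per kilobase of annotated exon (all transcripts of a gene merged, GENCODE M21). The mean in shGFP was 143 for Ccna2, 114 for Kif20a and 62.2 for Ccne2, and the libraries of these 3 genes did not overlap. Incenp had 5.31, Bub1b 3.39, Mcm10 3.12, Mcm6 2.79, Gtse1 2.01 and Cdk1 0.912 counts per kilobase. From Incenp down to Gtse1, each gene's shGFP libraries overlapped those of the next, so their order is not settled. Gtse1 (1.46 to 2.55 counts per kilobase) and Cdk1 (0.405 to 1.42) were just apart. Per kilobase, Ccna2 thus had the highest value of the 9 genes and its partner kinase Cdk1 the lowest, the latter from 7 and 2 counts in shGFP. The 3 highest genes also have exons that overlap a gene on the opposite strand, as described below, and the strand setting is not given. The gap between Ccna2 and Cdk1 is therefore not read as a difference in the RNA of the 2 genes.

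Ratios of 2 genes within a library need no scaling between libraries. Kif20a had 0.89 and 0.80 counts per count of Ccna2 in shGFP and 1.02 and 0.86 in shNCAPH2. Ccne2 had 0.37 and 0.38 counts per count of Ccna2 in shGFP and 0.42 and 0.35 in shNCAPH2. In both ratios the groups overlapped. Kif20a had 2.42 and 2.11 counts per count of Ccne2 in shGFP and 2.46 and 2.44 in shNCAPH2, where the groups did not overlap but their means differed by less than the shGFP libraries did. The counts of the 9 genes were also split by phase in each library. S entry took 17.8% and 19.2% in shGFP and 19.2% and 17.2% in shNCAPH2, S to G2 took 42.4% and 43.8% against 38.7% and 43.3%, and mitosis took 39.9% and 37.0% against 42.1% and 39.5%. The groups overlapped in each phase. These shares are set almost wholly by Ccne2, Ccna2 and Kif20a, 1 gene for each phase. Without Ccna2, mitosis took 68.0% and 65.3% in shGFP against 68.7% and 69.4% in shNCAPH2. S to G2, then Cdk1 and Gtse1 alone, took 1.62% and 0.82% against 0% and 0.40%. In these 2 phases the groups did not overlap, while in S entry (30.4% and 33.8% against 31.3% and 30.2%) they did. No test was made of these shares.

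The counts were then tested across the whole table with edgeR's quasi-likelihood test with TMM scaling, in which a log2 fold change of 0 stands for about the typical loss of the tested features. A positive value is a smaller loss than that. As the list holds only features with fewer counts in shNCAPH2, positive values were bounded, and the highest of any tested feature was 0.26. Finding none called higher was thus set by the list and is no separate result. Of the 9 genes 7 passed the filter on low counts, and Cdk1 and Gtse1 did not. None of the 7 was called, with unadjusted p of 0.25 to 0.77 in edgeR and 0.23 to 0.76 in DESeq2, and 0 of the 7 under 0.05 in either. Over all 896 tested features 1.0% were called lower and 0.0% higher at an adjusted p under 0.05, with 57 lower and 0 higher at an unadjusted p under 0.05 in edgeR and 33 and 0 in DESeq2.

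Ccna2, Ccne2 and Kif20a had the narrowest estimates. The relative log2 fold change was 0.06 for Ccna2 (95% interval -0.35 to 0.48), 0.11 for Ccne2 (-0.29 to 0.51) and 0.22 for Kif20a (-0.18 to 0.63). For these 3 genes, a relative log2 fold change below -0.35 or above 0.63 lies outside the intervals. The upward side was bounded by the list itself, as no tested feature exceeded 0.26. The other 4 estimates left wider room. Mcm10 was at 0.19 ± 0.38 (SE), Incenp at 0.12 ± 0.40, Bub1b at -0.34 ± 0.58 and Mcm6 at -0.40 ± 0.57. The interval of Mcm6 ran from -1.66 to 0.86 and that of Bub1b from -1.63 to 0.95. Without a filter on low counts, Cdk1 was at -2.05 ± 1.23 and Gtse1 at -2.33 ± 1.17, and neither passed (edgeR adjusted p = 0.57 and 0.41). Mcm6, with E2F motifs in its promoter window, and Mcm10, without one, had intervals that overlap. Cdk1 had too few counts to be compared with either. With 1 gene of each kind and wide intervals, nothing about the motif can be read from these values. Leaving out 1 library turned the sign of Mcm6, Mcm10, Ccna2, Incenp and Bub1b in at least 1 case, so no direction relative to the typical feature is given for them.

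With all libraries set to an equal size, a scaling under which the median tested feature lay at -0.84 and 30.6% of the 928 tested features were called lower, 2 of the 7 genes were called lower. They were Ccna2 at -0.75 ± 0.19 and Ccne2 at -0.71 ± 0.18 (SE, edgeR adjusted p = 0.040 for both). Kif20a, at -0.61 ± 0.19, did not pass (edgeR adjusted p = 0.055). All 3 values lie above that median, but the median lies inside the edgeR interval of each, so no direction relative to it is given here. The share called, 2 of 7, is near that over all features.

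**Figure D3:**
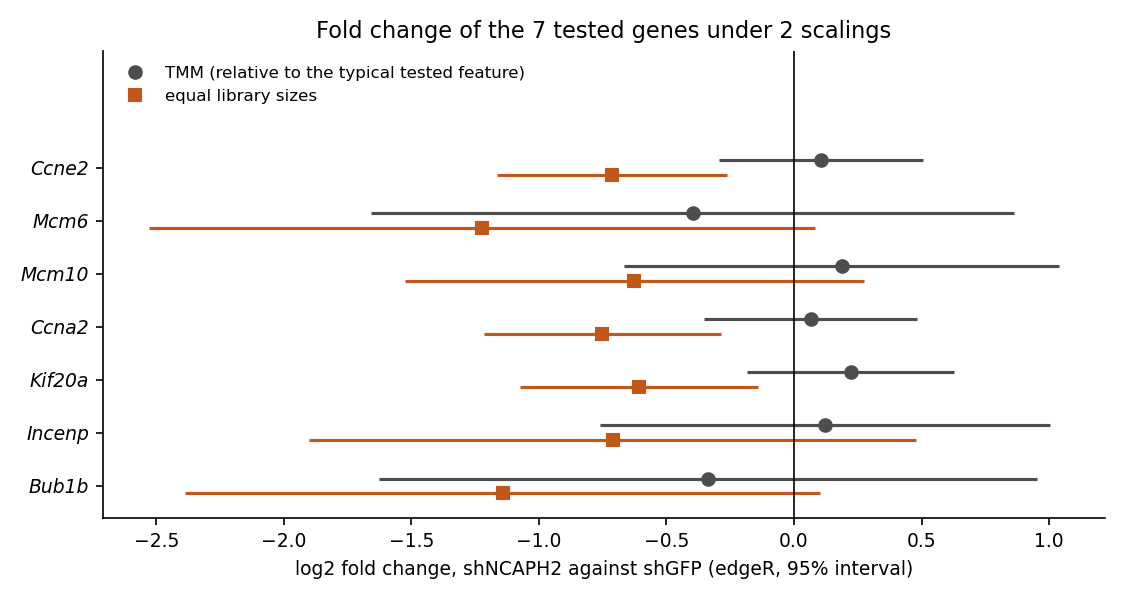
Log2 fold change of the 7 tested genes, shNCAPH2 against shGFP, with 95% intervals from edgeR under TMM scaling (grey circles) and with all libraries set to an equal size (orange squares). Under TMM every interval includes 0. With equal sizes all 7 values are negative and those of Ccne2, Ccna2 and Kif20a have intervals below 0.

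The same 3 genes shared a feature of position. Ccne2, Ccna2 and Kif20a each had exons that overlap an exon of a gene on the opposite strand, and the other 6 genes had none in GENCODE M21. In each case the genes face each other with their 3′ ends. Ccne2 overlapped Ints8, a subunit of the Integrator complex, over 609 bases (17.4% of its exon length). Ccna2 overlapped Exosc9, a subunit of the RNA exosome, over 510 bases (12.5%), all within 863 bases of its 3′ end. Kif20a overlapped Cdc23, a subunit of the anaphase-promoting complex, over 1271 bases (29.3%).

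**Figure D4:**
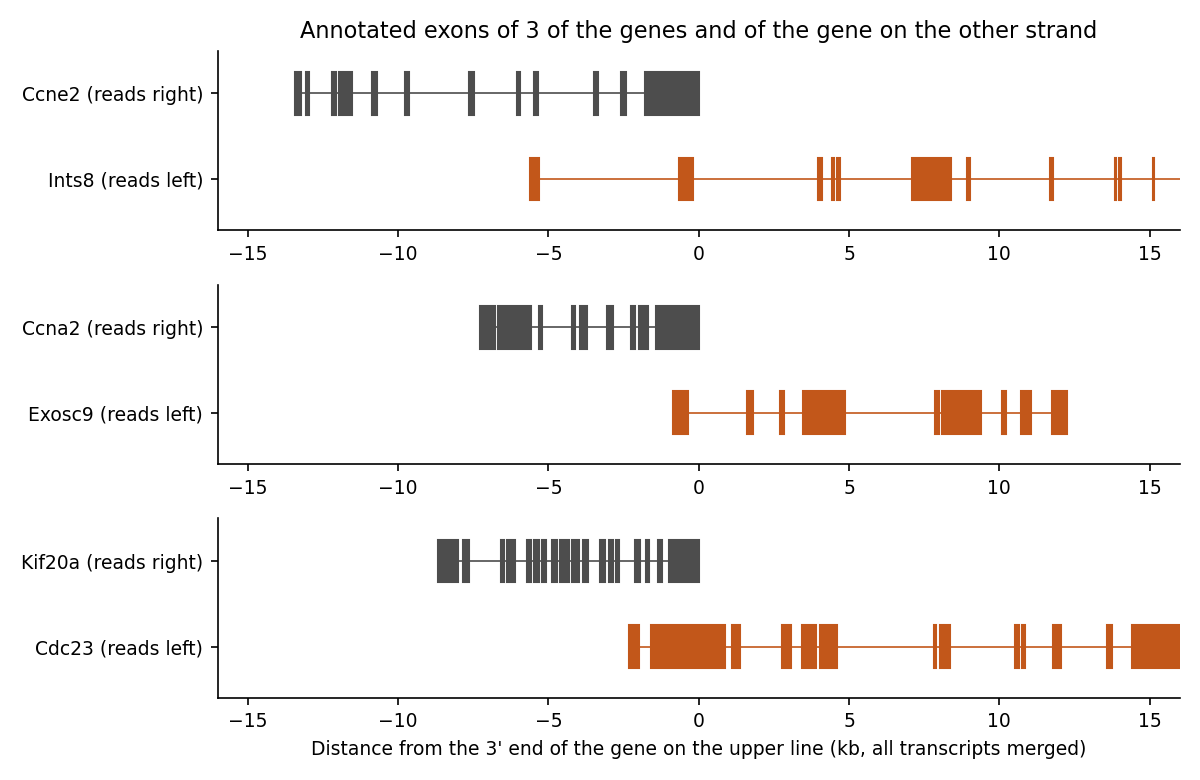
Annotated exons (boxes, all transcripts merged) of Ccne2, Ccna2 and Kif20a on the upper line of each panel and of the gene on the opposite strand below, against distance in kilobases from the 3′ end of the upper gene. Each pair runs towards each other and overlaps at the 3′ ends, over 609, 510 and 1271 bases.

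Whether strand was kept in the library or the counting is not stated, so reads of Ints8, Exosc9 or Cdc23 may be part of these counts, and their part was not tested. Cdc23 was itself in the tables, with 1689 and 1528 counts with shGFP and 1017 and 1163 with shNCAPH2, and it kept 67.8% of its shGFP count, the highest share of any named feature. Kif20a had 0.32 and 0.29 counts per count of Cdc23 in shGFP and 0.32 and 0.28 in shNCAPH2, so the ratio of the pair differed no more between groups than within them. Ints8 and Exosc9 were not analysed here. Among all features matched to the annotation, 41.6% had such an overlap. The share was 68.2% of the 289 with a mean shGFP count of 100 or more and 32.0% of the 1003 with a mean under 35.

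Genes of the wider cell cycle were taken from lists. Of 66 genes of S entry and replication 7 were in the tables, of 33 genes of S to G2 7, and of 77 mitosis genes 12. The tables list only features with fewer counts in shNCAPH2, so the absence of a gene does not tell why it is missing. The share of all genes that are listed is not known here. Of a list of 25 genes of cell cycle brakes and the p53 pathway, which includes the inhibitor Cdkn1a, 0 were in the tables. Of 8 condensin genes 1 was, Ncapd3, with 8 and 11 counts with shGFP and 4 and 3 with shNCAPH2. Of these 27 genes 14 were tested and none was called (0 under an unadjusted p of 0.05 in edgeR or DESeq2). Their median relative log2 fold change was 0.09, beside -0.004 over all tested features. With equal library sizes 4 of the 14 were called lower, Ccna2, Ccne2, Cdc23 and Cdc26. That share is near the 30.6% of all 928 tested features called lower under this scaling.

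Among replication genes, Orc2, a subunit of the origin recognition complex, had 32 and 27 counts with shGFP and 18 and 15 with shNCAPH2. Gins1, a subunit of the replicative helicase, had 7 and 3 counts with shGFP and 0 and 0 with shNCAPH2. Rpa1, which coats single-stranded DNA, had 10 and 7 against 2 and 2. As with the 9 genes, the genes with the fewest counts kept the least.

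Besides Cdk1 and Gtse1, the S to G2 list held Cks1b, a small partner of cyclin-dependent kinases, at 5 and 6 counts with shGFP and 2 and 1 with shNCAPH2. It also held Fbxo5, an inhibitor of the anaphase-promoting complex, at 11 and 9 against 8 and 2. Ccna2 was the only 1 of its 7 listed genes with enough counts to be tested.

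The mitosis list had the most counts. Cdc26, a further subunit of the anaphase-promoting complex, had 1065 and 1128 counts with shGFP and 678 and 578 with shNCAPH2, or 0.01 ± 0.22 (SE) as a relative log2 fold change. Kif2c, a kinesin that takes microtubules apart at centromeres, had 35 and 16 against 12 and 18, and its groups overlapped as those of Incenp did. Sgol1, which protects cohesin at centromeres, had 22 and 20 against 13 and 14. Bub1b was the 1 gene of the checkpoint kinases Bub1, Bub1b and Ttk in the tables. Groups were apart in 23 of the 27 genes on all lists, beside 88.4% of all named features. Of the 27 genes, 5 had a mean shGFP count of 100 or more, and 4 of these (all but Cdc26) had an exon overlap with an opposite-strand gene. Of the other 22, all with a mean under 35, 6 did, and Sgol1 could not be matched to the annotation.

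**Figure D5:**
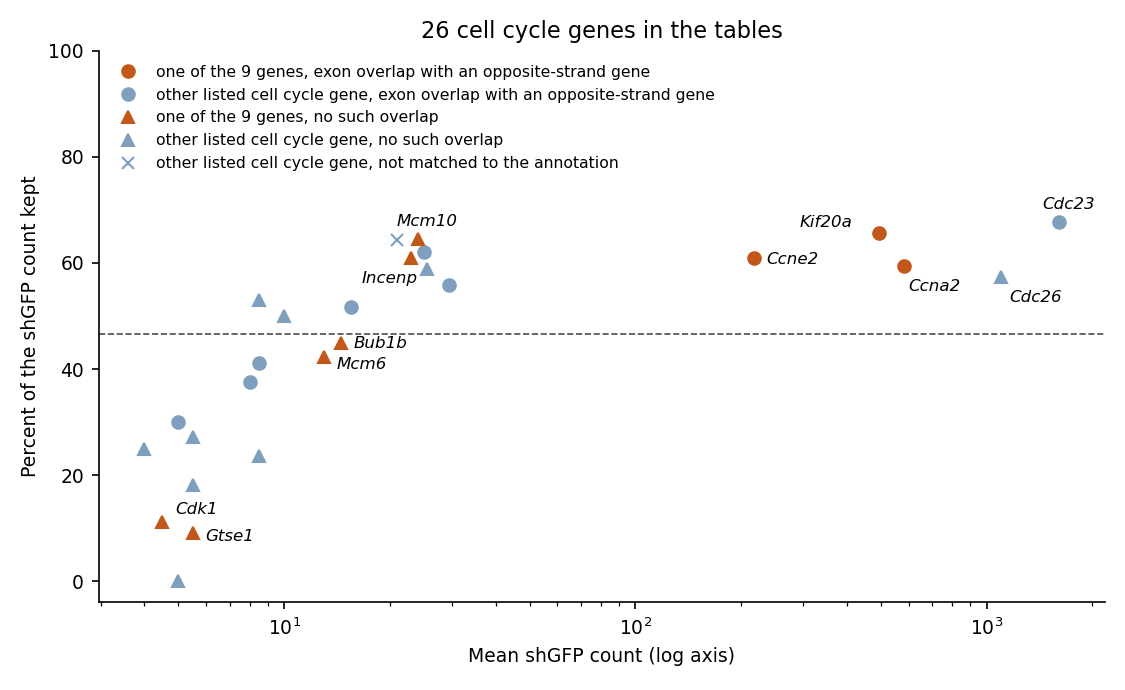
Percent of the shGFP count kept in shNCAPH2 against the mean shGFP count (log axis) for the 26 cell cycle genes in the tables, with the 9 genes in orange, other genes in blue, circles for genes with an exon overlap on the opposite strand, triangles for genes without and a cross for the gene without a match. The shares under 40% all belong to genes under 10 counts, Cdk1 and Gtse1 among them, and the dashed line is the median of all named features, 46.7%.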

How the data were processed

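Raw counts were deposited by the authors as 1 table for each library, with symbol, position and strand per the file headers. TopHat2 (2.0.10), edgeR and mm9 appear in the submitters' processing notes, with no role given. Positions nevertheless followed GRCm38, since 1465 of 1517 named features matched GENCODE M21 by symbol and place, 1275 with the same start or end. The counting annotation and strand setting are not given in the sources used here. The 101 rows without a symbol (22.2% to 23.3% of counts) were left out. Table sums are not sequencing depths, as the tables list a part of the features.

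Counts of all named features were tested with edgeR 4.0.16 in R 4.3.3 (quasi-likelihood, TMM, filterByExpr, group only, 2 residual degrees of freedom) with Benjamini-Hochberg adjustment at 0.05. The script was tested on simulated counts. Intervals of count ratios are exact (scipy 1.17.1). Each SE was derived from the test, as the size of the log2 fold change over the root of F. The 9 genes are always named, and genes of the lists may be named where they are in the tables. Genes, lists and alternatives were chosen with earlier results of these data known. Of the listed genes, 1 is counted but not reported by name here.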

Additional observations from a re-analysis of the deposited data

How the results depend on the processing

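The number of features called lower, 9 with edgeR and TMM, was 16 when RLE replaced TMM, 21 with no filter at all, 16 with a filter of 50 summed counts, 284 with equal library sizes, 1 among features without an opposite-strand exon and 9 with DESeq2 1.42.0. It was 12 to 18 when 1 library was left out. In each case the cause was not tested. None was called higher in any fit of all 4 libraries. The list holds only features with fewer counts in shNCAPH2, so this was set by the list and is no separate result. A fit with the replicate number as a block gave 4 and called none of the 9 genes. The labels give no pairing beyond a number, and over 896 features the differences between replicates 1 and 2 of the 2 groups had r = -0.04. Listed cell cycle genes called lower were 0 of 14, beside 1.0% of all tested features. With equal library sizes they were 4 of 14, beside 30.6%.

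Of 70 alternative values of the 7 tested genes, 59 kept their sign and 11 turned, none of them called under TMM. With equal library sizes, which move the median to -0.84, Ccne2 was at -0.71, Mcm10 at -0.63, Ccna2 at -0.75, Kif20a at -0.61 and Incenp at -0.71. Without 1 library, Mcm6 ranged from -1.29 to 0.26 (tested in 2 of 4 fits), Mcm10 from -0.11 to 0.52, Ccna2 from -0.0026 to 0.17, Incenp from -0.18 to 0.58 and Bub1b from -1.06 to 0.25. The median share kept by the 9 genes, 59.4% of raw counts, was 105% after division by TMM library sizes and 107% after division by the sum of named features, and 56.9% to 60.2% without 1 library. The difference between groups in the S entry, S to G2 and mitosis shares went from -0.31, -2.05 and 2.36 percentage points to -1.37, -1.02 and 2.39 without Ccna2, and the groups then no longer overlapped in S to G2 and mitosis. Counts under 35 limit Mcm6, Mcm10, Incenp and Bub1b, and Cdk1 and Gtse1 allow no test after the filter.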
